A study of Mus musculus and Acomys cahirinus with 25 samples.

Results

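The genes described here are 43 interferon-stimulated genes, chosen by symbol from a list and looked up in every library, and all 43 were found among the 24500 gene rows of each count table. They were followed in 25 RNA-seq libraries of wound-induced hair neogenesis, the formation of new hair follicles in the bed of a large healing skin wound. The study compared the center of the wound, where follicles form, with its margin, and asked what the transcription factor Twist1 does in the epidermis. Levels are given as CPM, the counts of a gene over all gene reads of its library, scaled to 1000000.

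The lab mouse libraries came from wounds at post-wound day (PWD) 14 of 4-week-old mice, separated by hand into epidermis and dermis and, by a punch biopsy at the middle of the wound, into center and margin. There were 2 libraries of wild-type center epidermis, 2 of wild-type margin epidermis, 5 of wild-type center dermis, 2 of wild-type margin dermis and 2 of center dermis from K14-Cre-Twist1 mice. In those mice a Tg(KRT14-cre) transgene removes a floxed Twist1 in cells that use the keratin 14 promoter, which are epidermal keratinocytes, so that dermis libraries do not measure the deletion itself. The study's main strain was C57BL/6J, and the controls of its transgenic work were wild-type Twist1+/+ mice, while the labels call all wild-type libraries WT without a strain. Wild-type center dermis replicates 1 and 2 were set against the margin and replicates 3, 4 and 5 against K14-Cre-Twist1, as the study did, so that these 2 sets may differ in strain. The spiny mouse libraries came from 2-month-old Acomys cahirinus, a species that regenerates skin with hair, and their labels name no genetic change. Whole wounds, not divided into center and margin, were separated after trypsin into epidermis and dermis. Each layer had 2 libraries of PWD21 and 1 of PWD28, while PWD0 had 1 of epidermis and 2 of dermis and PWD14 had 2 of epidermis and 1 of dermis, where PWD0 is unwounded shaved skin. These days are those of the labels, while the study's supplementary list of samples gives slightly different days for the wounded spiny mouse libraries. Mice of both sexes were used. The study calls its RNA-seq replicates independent, while the labels name no animal or pool for a library, so p-values measure the spread between libraries.

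Interferons are secreted proteins that cells release on sensing viral or misplaced nucleic acid. Type I and type III interferons signal through JAK kinases to a complex of transcription factors that holds STAT2 and IRF9 and binds the interferon-stimulated response element, while interferon gamma acts at the gamma-activated sequence. The target genes include sensors of foreign RNA and DNA, enzymes that block translation or break down RNA, GTPases that trap viruses and intracellular parasites, the ubiquitin-like protein ISG15, and the transcription factors that carry the response further. In skin such genes are used by keratinocytes, fibroblasts and immune cells alike.

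The sequence before the start site shows the element that many of these genes share. RefSeq promoter sequences on mouse build GRCm38.p6 were matched for 33 of the 43 genes, all but Usp18, Oas2, Mx1, Mx2, Iigp1, Dhx58, Zbp1, Ifi27l2a, Rtp4 and Parp14. The core of the response element was searched on both strands as the letters GAAA, any 2 bases and GAAA, and the gamma-activated sequence as TTCNNNGAA, which is its own reverse complement. The first was found within 250 bases upstream of the start in 15 of the 33 genes (45.5%) and in 3.46% of the promoters of 27025 genes. The second was found in 7 of the 33 (21.2%) and in 8.13% of all promoters. The 160 bases before the start are printed 5′ to 3′ for 5 genes, with capitals marking the response element core, except for Irf1, where they mark the gamma-activated sequence. Isg15 (chr4:156200819-156200978, minus strand) and Bst2 (chr8:71537473-71537632, minus strand) are shown for cores that overlap one another, Ifit1 (chr19:34640729-34640888, plus strand) for a pair of cores read from the other strand, Gbp2 (chr3:142620503-142620662, plus strand) for a single core, and Irf1 (chr11:53769854-53770013, plus strand) as a gene without a core. In Bst2 a gamma-activated sequence, not capitalised, overlaps the first core by its last letters. A match describes letters in this window and says nothing of binding.
Isg15: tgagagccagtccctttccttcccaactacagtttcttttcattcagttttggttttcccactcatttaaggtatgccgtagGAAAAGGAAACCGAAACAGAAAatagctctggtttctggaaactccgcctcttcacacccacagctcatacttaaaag
Bst2: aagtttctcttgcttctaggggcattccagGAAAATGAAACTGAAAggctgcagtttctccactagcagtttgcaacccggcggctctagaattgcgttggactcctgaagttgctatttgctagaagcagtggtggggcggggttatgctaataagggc
Ifit1: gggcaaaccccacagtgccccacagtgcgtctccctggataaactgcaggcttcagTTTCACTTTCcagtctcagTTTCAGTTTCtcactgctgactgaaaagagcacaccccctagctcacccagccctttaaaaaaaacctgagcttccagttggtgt
Gbp2: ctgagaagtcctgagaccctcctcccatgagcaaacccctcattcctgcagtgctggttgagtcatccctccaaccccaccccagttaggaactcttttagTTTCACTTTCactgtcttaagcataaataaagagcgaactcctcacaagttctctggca
Irf1: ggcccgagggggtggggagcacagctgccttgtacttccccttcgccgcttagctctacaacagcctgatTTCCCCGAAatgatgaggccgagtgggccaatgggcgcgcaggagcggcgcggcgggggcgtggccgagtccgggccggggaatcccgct

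Several of the genes lie side by side. On GRCm38.p6, Ifit2, Ifit3, Ifit3b and Ifit1 lie between 34550550 and 34650009 on chromosome 19, Oas2, Oas3, Oas1g and Oas1a between 120730333 and 120907544 on chromosome 5, and Rsad2 and Cmpk2 between 26442743 and 26479837 on chromosome 12. Reads of near-identical copies, such as Ifit3 with Ifit3b and Oas1a with Oas1g, could have been split or lost in the counting, and the values of these genes are uncertain to that extent.

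Lab mouse libraries held between 19413261 and 86532134 reads on genes and spiny mouse libraries between 5669760 and 34751956, so that 3 counts, taken as the smallest amount detectable, corresponded to between 0.0347 and 0.529 CPM. Such floors and intervals cover counting error only. Reads set aside for low alignment quality were 23.3% to 34.4% of those recorded for lab mouse libraries and 38.0% to 60.5% for spiny mouse libraries. Unaligned reads and reads aligned to several places were recorded as 0% in every library. The share is therefore not one of all sequenced reads, and reads aligned to several places may be part of it. Reads of both species were aligned to the lab mouse genome, and levels are therefore compared within a species only. In the lab mouse 32 of the 43 genes were over 3 counts in every library, and in the spiny mouse 19. Ifit3, Oas2, Oas3 and Ifi27l2a were at or under 3 counts in at least 6 of the 12 spiny mouse libraries.

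**Figure D1:**
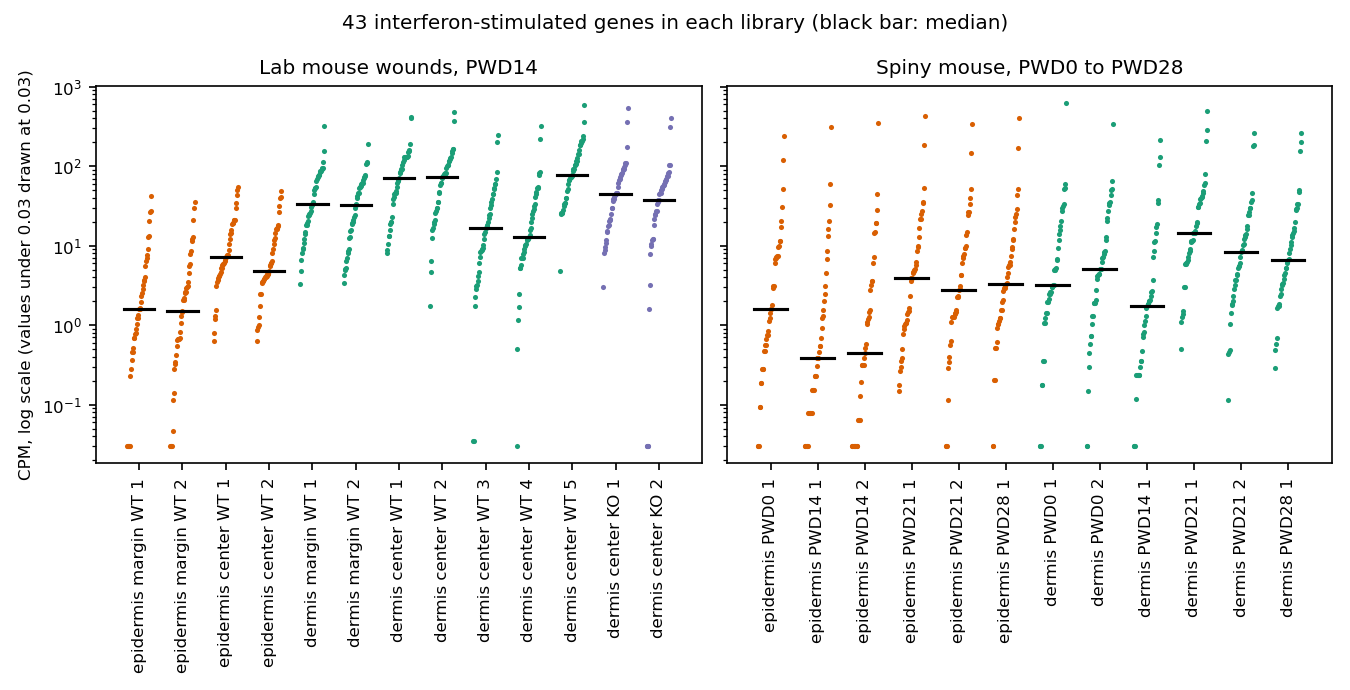
CPM on a log axis of each of the 43 interferon-stimulated genes (dots, sorted within a library) in the 13 lab mouse libraries (left) and the 12 spiny mouse libraries (right), with the median of the 43 as a black bar. Medians lay between 1.502 and 7.16 CPM in lab mouse epidermis and between 13.1 and 77.7 CPM in lab mouse dermis.

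The 43 genes together took 532 and 437 CPM in lab mouse center epidermis, 220 and 194 CPM in margin epidermis, 3957 and 3696 CPM in center dermis replicates 1 and 2, and 2254 and 1798 CPM in margin dermis. In the plot of the genes by library, these center libraries therefore lay above both margin libraries in either layer. Center dermis replicates 3 and 4, also drawn there, had sums of 1349 and 1478 CPM, below both margin dermis libraries, and replicate 5 had 4803 CPM. Per kilobase of exon, Ifitm3, which blocks the entry of viruses at membranes, was the highest of the 43 in all of these groups of 2 libraries. It had 73.9 ± 1.48 CPM per kb in center epidermis, 47.0 ± 22.1 in margin epidermis, 657 ± 82.4 in center dermis replicates 1 and 2 and 375 ± 137 in margin dermis (mean ± SD, n = 2 each). Ifi27l2a, a small membrane protein of the Ifi27 family, followed in dermis with 253 ± 46.7 CPM per kb in the center and 68.1 ± 2.45 in the margin. In bulk tissue, fewer cells that express a gene and less RNA per cell cannot be told apart.

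In lab mouse epidermis, interferon-stimulated genes stood higher in the center of the wound than at its margin. With edgeR's quasi-likelihood test over 14165 genes and Benjamini-Hochberg adjustment, 3 of the 43 rose with an FDR under 0.05 and 0 fell, where 0.882% of all genes tested rose. At an unadjusted p-value under 0.05, 28 of the 43 were higher and 0 lower, against 13.1% of all genes higher. Both center libraries lay above both margin libraries for 40 of the 43, against 35.8% of all genes, and the exceptions were Gbp2, Stat2 and Eif2ak2. The median log2 fold change was 1.93 over the 43 genes and -0.02 over all genes tested.

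Isg15, the ubiquitin-like protein that is joined to other proteins after interferon, had 7.16 and 4.78 CPM in the center and 0.283 and 0.116 CPM in the margin (log2 fold change 5.08, SE 0.68, FDR = 0.0367). Oasl1, a relative of the oligoadenylate synthetases that restrains the translation of Irf7, had 3.87 and 4.21 CPM in the center and 0 and 0.139 CPM in the margin (log2 fold change 5.27, SE 0.81, FDR = 0.0398). Lgals3bp, a secreted glycoprotein that binds galectins, had 55.5 and 40.8 CPM against 12.9 and 12.9 CPM (log2 fold change 1.80, SE 0.26, FDR = 0.0474). The groups of these 3 genes lay far apart, and the margin values of Isg15 and Oasl1 rested on 0 to 12 counts. Mx2, an antiviral GTPase, had 0.795 and 0.868 CPM in the center and 0 counts in both margin libraries, which puts the center at least 33.6-fold higher, computed against 3 counts over the group.

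By role, 2 of 4 Ifit genes, which bind viral RNA, passed an unadjusted p-value threshold of 0.05, each with the center higher, as had 3 of 3 of Isg15 and its partners, 5 of 6 oligoadenylate synthetases, 5 of 7 GTPases, 3 of 5 nucleic acid sensors, 2 of 4 transcription factors, 1 of 2 membrane restriction factors and 7 of 12 others. Ifit1 had 12.2 and 8.01 CPM in the center and 1.59 and 0.0462 CPM in the margin. Irf7, the factor that amplifies interferon production, had 15.6 and 12.5 CPM against 0.51 and 4.6 CPM. Bst2, which tethers budding viruses to the cell, had 7.2 and 6.46 CPM against 0 and 0.67 CPM. None of these 3 passed the FDR threshold, though their center libraries lay above their margin libraries.

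Ifit3 had 5.77 and 3.58 CPM against 2.83 and 0.347 CPM, with a margin library close to the center. Usp18, the protease that removes ISG15, had 6.46 and 3.82 CPM against 0.794 and 0.659 CPM. Zbp1, a sensor of Z-form nucleic acid, had 5.89 and 4.21 CPM against 0 and 0.543 CPM. The margin libraries of Usp18 and Zbp1 were both well below the center.

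Iigp1, a GTPase induced by interferon gamma, had 5.92 and 3.58 CPM in the center and 0.907 and 1.29 CPM in the margin. Irf1, the factor that answers interferon gamma, had 7.39 and 5.77 CPM against 1.59 and 2.22 CPM. Gbp2, another GTPase of that response, had 4.17 and 3.36 CPM against 3.57 and 2.61 CPM, and its groups overlapped. Stat2, the type I signal transducer, overlapped too, at 29.9 and 26.8 CPM and 26.9 and 35.8 CPM.

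Mx1, the paralog of Mx2, had 3.48 and 1.72 CPM in the center and 0.68 and 0.416 CPM in the margin. Oas2, an oligoadenylate synthetase that activates RNA breakdown, had 3.7 and 4 CPM against 0.227 and 2.96 CPM, with the margin libraries unlike each other. Rsad2, or viperin, which makes a chain-ending nucleotide, had 3.09 and 2.5 CPM against 1.25 and 0 CPM. Ifi27l2a had 4.61 and 2.5 CPM against 1.36 and 0.67 CPM, and Ifitm3 50.8 and 49.4 CPM against 42.5 and 21.3 CPM, a margin that reached close to the center in 1 library.

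Markers of other cells moved with the region. The summed level of 10 fibroblast markers was 4686 and 5668 CPM at its lowest and highest in center epidermis and 781 and 2324 CPM in margin epidermis, against 110407 to 167888 CPM in the 4 dermis libraries, and 5 of the 10 were higher in the center at an unadjusted p-value under 0.05. The only one at 0 was Fap, in margin replicate 1. The sums of 6 endothelial markers were 20.7 to 32.0 CPM in the center and 1.68 to 6.63 CPM in the margin, where Vwf was at 0 in replicate 1 and Kdr and Tek in replicate 2, and 5 of the 6 were higher in the center by the same measure. Those of 10 macrophage and monocyte markers were 130 to 132 and 87.1 to 88.7 CPM. The 7 neutrophil markers summed to 254 to 405 CPM in the center, where 2 to 3 were at 0. In the margin they summed to 41.3 to 111 CPM, and 3 to 4 were at 0. The 10 keratinocyte markers summed to 163575 to 172521 CPM in the center and 155042 to 214984 CPM in the margin, and none differed at that threshold. The 6 plasmacytoid dendritic cell markers summed to 2769 to 2807 CPM in the center, where 0 were at 0. In the margin they summed to 1131 to 1793 CPM, with Klk1 and Cox6a2 at 0 in both libraries. At an unadjusted p-value under 0.05, 2 of the 6 were higher in the center. The same list summed to 449 to 572 CPM in center dermis replicates 1 and 2 and to 577 to 629 CPM in margin dermis. Which gene made up most of this sum was not looked at, so it does not give the number of these cells. Of 5 adipocyte markers Adipoq, Plin1, Cidec and Lep were at 0 in all 4 libraries, and the fifth, Fabp4, gave sums of 430 to 554 CPM against 35.5 to 66.9 CPM (FDR under 0.05). Follicle markers summed to 0.177 to 0.452 CPM in the center and 5.24 to 41.8 CPM in the margin, with all 4 tested lower in the center at an unadjusted p-value under 0.05. The part of these cells in the result was not tested.

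Among pathway genes outside the 43, 0 of 11 receptor and JAK-STAT genes differed between center and margin epidermis at an unadjusted p-value under 0.05. Of 12 MHC class I genes, which present peptides to T cells, 3 were higher and 1 lower at that threshold. The 21 interferon genes themselves were near 0, with at most 59 counts in any lab mouse library, for Ifng in margin epidermis replicate 2. Ifnk, an interferon of keratinocytes, had 0.353 and 0.543 CPM in center epidermis and 0 counts in the other 11 lab mouse libraries (unadjusted p = 0.0273, FDR = 0.169 in edgeR's quasi-likelihood test). The count with an FDR under 0.05 was 21 with DESeq2 and 0 when the quasi-likelihood dispersion was estimated as in edgeR 3. It was 39 without margin replicate 1, 28 without margin replicate 2, 0 without center replicate 1 and 1 without center replicate 2, fits in which the spread comes from the group that keeps 2 libraries, and 42 of the 43 genes were higher in the center with both estimates and with DESeq2.

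In lab mouse dermis the same direction was found. Of the 43 genes 7 rose in the wound center with an FDR under 0.05 (edgeR's quasi-likelihood test over 14698 genes) and 0 fell, where 0.116% of all genes tested rose. At an unadjusted p-value under 0.05, 27 were higher, against 5.11% of all genes, and 1 was lower. Both center libraries lay above both margin libraries for 32 of the 43, against 15.1% of all genes. Over the 43 genes the log2 fold change had a median of 0.99, and over all genes of -0.03.

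Ifit1 had 93 and 80.8 CPM in the center and 25.1 and 19.3 CPM in the margin (log2 fold change 2.06, SE 0.29, FDR = 0.00807). Ifi27l2a had 132 and 102 CPM against 30.7 and 32.3 CPM (log2 fold change 1.99, SE 0.26, FDR = 0.00535). Irf7 had 132 and 164 CPM against 44.2 and 39.6 CPM (log2 fold change 1.90, SE 0.23, FDR = 0.00397). The margin libraries of each of these genes were close together and well below the center.

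Isg15 had 71.1 and 74.1 CPM in the center and 23.5 and 19.9 CPM in the margin (log2 fold change 1.83, SE 0.28, FDR = 0.013). Lgals3bp had 421 and 366 CPM against 157 and 113 CPM (log2 fold change 1.63, SE 0.23, FDR = 0.00807). Bst2 had 103 and 149 CPM against 55.2 and 42.7 CPM (log2 fold change 1.43, SE 0.26, FDR = 0.031). The groups did not overlap for these 3 genes either. The seventh was Oasl2, a ubiquitin-like relative of the oligoadenylate synthetases, with 192 and 153 CPM in the center and 87.6 and 56.2 CPM in the margin.

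Of the genes best known from the interferon gamma response, Irf1 had 93.1 and 74.8 CPM in the center and 75.4 and 72.4 CPM in the margin, and Iigp1 120.1 and 71.4 CPM and 85.9 and 59.2 CPM, and the groups of both overlapped. Gbp2 had 89.2 and 79.7 CPM against 52.6 and 60.8 CPM. Gbp5, a GTPase of the same family that promotes inflammasome assembly, was the gene whose center libraries, at 8.75 and 1.75 CPM, both lay below the margin, at 20.3 and 16 CPM.

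Stat2 had 130.4 and 124 CPM in the center and 78.6 and 70.3 CPM in the margin, and Usp18 41 and 45.8 CPM and 18.5 and 15.1 CPM. Oas2 had 39.2 and 58.4 CPM against 27.6 and 20.8 CPM, and Mx1 13.2 and 19.9 CPM against 12.1 and 8.97 CPM. Zbp1 had 45.6 and 61 CPM against 25.5 and 12.6 CPM, and Rsad2 46 and 25.7 CPM against 15 and 8.56 CPM. For these 6 genes the center lay above the margin in every library, and none passed the FDR threshold. Ifit3, at 55.5 and 15.6 CPM against 24.6 and 5.05 CPM, overlapped, while Ifitm3, at 406 and 485 CPM against 319.8 and 188 CPM, did not.

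In the dermis 8 of 12 MHC class I genes were higher in the center at an unadjusted p-value under 0.05, and 0 had an FDR under 0.05. Keratinocyte markers were lower in the center, with sums of 466 to 631 CPM against 2310 to 4667 CPM and 6 of 10 with an FDR under 0.05, and so were follicle markers, with 0 to 4.71 CPM against 435 to 511 CPM and 4 of 6. Macrophage and monocyte markers summed to 4012 to 4954 CPM in the center and 3036 to 4262 CPM in the margin. Their part in the result was not tested.

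The dermis result rested on center replicates 1 and 2. Replicates 3 and 4, wild-type center dermis by the same labels, lay both below both of these for 39 of the 43 genes, and both below both margin libraries for 31. Replicate 5 lay above both margin libraries for 39. The share over all genes was not computed for these counts, so they are not shown to be particular to the 43 genes. With all 5 wild-type center libraries in the fit 0 of the 43 had an FDR under 0.05, and 0 with all lab mouse libraries in 1 fit, while 42 of the 43 stayed above 0 in both. The count was 21 with DESeq2, 3 with the edgeR 3 estimate, 1 without margin replicate 1, 0 without margin replicate 2, 6 without center replicate 1 and 7 without center replicate 2.

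**Figure D2:**
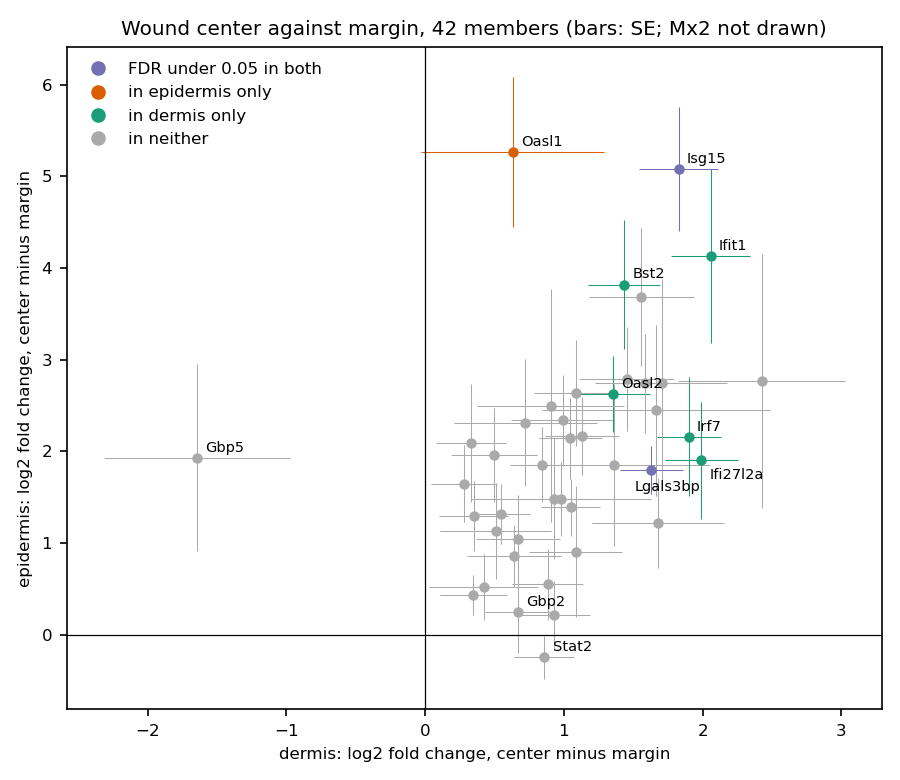
Log2 fold change of wound center over wound margin in epidermis (vertical axis) against dermis (horizontal axis) for 42 of the 43 genes, with standard errors as bars and colours for an FDR under 0.05. Isg15 and Lgals3bp passed in both layers, and Gbp5 lay to the left of 0 in dermis.

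Whether the center-margin difference was larger in epidermis than in dermis was tested as an interaction over 15531 genes. For 1 of the 43, Isg15, the difference was larger in epidermis with an FDR under 0.05, by 3.37 on the log2 scale (SE 0.75, FDR = 0.0276 in edgeR's quasi-likelihood test), where 3.34% of all genes passed in that direction. At an unadjusted p-value under 0.05 it was 18 of the 43 in that direction and 1 in the other, against 13% of all genes. The median interaction was 1.08 over the 43 genes and 0.31 over all genes, and 5 of 6 endothelial and 8 of 10 keratinocyte markers passed the unadjusted threshold in the same direction. Isg15 lost the call when any 1 of the 8 libraries but margin epidermis replicate 1 was left out, with log2 values between 2.58 and 3.92 (FDRs between 0.0290 and 0.174 over these 8 fits).

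Between the layers the 43 genes were lower in epidermis. Of them 39 were lower with an FDR under 0.05 (edgeR's quasi-likelihood test over 14730 genes, 4 against 4 libraries, with region in the model) and 0 were higher, where 30.6% of all genes were lower. For 41 of the 43 all 4 epidermis libraries lay below all 4 dermis libraries, against 42.3% of all genes, the exceptions being Ifit3 and Oas3. Epidermis was read with paired ends and dermis with single ends, so layer and read type cannot be told apart. The median log2 fold change was -2.92 over the 43 genes and -0.06 over all genes, and without TMM factors all genes had a median log2 ratio of -0.86.

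Of the named genes Bst2 (log2 fold change -4.58), Iigp1 (-4.32), Ifi27l2a (-4.21), Mx2 (-4.09), Isg15 (-4.02) and Gbp3 (-3.92), a GTPase of the guanylate-binding family, had the largest differences, with FDRs between 1.57e-05 and 0.00164. Irf1 (-3.63), Zbp1 (-3.62), Gbp2 (-3.52), Rsad2 (-3.21), Ifit1 (-3.09), Oas2 (-2.94), Usp18 (-2.92), Irf7 (-2.87), Mx1 (-2.58), Ifit3 (-2.30), Ifitm3 (-2.25) and Stat2 (-0.89) followed. Stat2, at the end of that order, had the smallest difference of the named genes. The 4 genes without an FDR under 0.05 were Oas3 and Oasl1, Irf9, the DNA-binding partner of STAT2, and Ifi35. Macrophage and monocyte markers were lower in epidermis too, 9 of 10 with an FDR under 0.05, as were all 10 fibroblast markers; their part was not tested.

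K14-Cre-Twist1 and wild-type center dermis were compared with 2 against 3 libraries. Twist1 itself had 57.7, 36.3 and 105 CPM in wild-type replicates 3, 4 and 5 and 73.4 and 44 CPM in K14-Cre-Twist1, so that its dermal level overlapped between the genotypes. Of the 43 genes 0 had an FDR under 0.05 in either direction (edgeR's quasi-likelihood test over 14163 genes), where 0.0494% of all genes were higher and 0.00706% lower. At an unadjusted p-value under 0.05, 0 of the 43 were higher, against 6.98% of all genes, and 1 was lower, against 4.54%. The log2 fold change was above 0 for 23 genes and below 0 for 20, with a median of 0.04.

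The gene past the unadjusted threshold was Rsad2, with 10.2, 10.03 and 104 CPM in wild type and 8.05 and 3.18 CPM in K14-Cre-Twist1 (log2 fold change -2.92, SE 1.23, unadjusted p = 0.0454, FDR = 0.423). It was the 1 gene whose K14-Cre-Twist1 libraries both lay below all wild-type libraries, against 16.7% of all genes. Ifi35, at 18, 24.8 and 25.6 CPM in wild type and 38.7 and 37.9 CPM in K14-Cre-Twist1, was the 1 gene with both above, against 12.7%. For 32 of the 43 both K14-Cre-Twist1 libraries lay within the range of the wild type, a count for which the share over all genes was not computed.

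Wild-type replicate 5 set that range. It was the highest of replicates 3, 4 and 5 for 42 of the 43 genes, with a median of 5.55 times the mean of the other two. It was the highest of all 5 wild-type center libraries for 24 of the 43, where 14.5% of 15340 genes were. Replicate 5 lay above both K14-Cre-Twist1 libraries for 39 of the 43, and replicates 3 and 4 lay both below both of them for 29. The 14.5% belongs to the count over all 5 libraries. No share over all genes was computed for the other counts here, so they are not shown to be particular to the 43. The sums over the 43 genes were 1349, 1478 and 4803 CPM in replicates 3, 4 and 5 and 2979 and 2332 CPM in K14-Cre-Twist1.

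Isg15 had 6.05, 7 and 72.5 CPM in wild type and 30.0 and 46.5 CPM in K14-Cre-Twist1. Ifit1 had 14.1, 9.12 and 198 CPM against 46.2 and 12 CPM, and Ifit3 1.75, 10.4 and 205 CPM against 45 and 37.6 CPM. Usp18 had 4.19, 5.24 and 51.9 CPM against 21.9 and 1.61 CPM. In each of these, replicate 5 alone stood above both K14-Cre-Twist1 libraries.

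Mx1 had 3.15, 1.16 and 39.3 CPM in wild type and 9.5 and 21.8 CPM in K14-Cre-Twist1, and Oas2 2.27, 10.2 and 34.5 CPM and 18.3 and 27.4 CPM. Irf7 had 25.3, 15.9 and 126 CPM against 93.6 and 65.2 CPM, and Ifi27l2a 7.2, 8.42 and 71 CPM against 54.1 and 18.2 CPM. Bst2 had 32.4, 29.1 and 209 CPM against 97.4 and 76.4 CPM, and Zbp1 8.42, 11.9 and 91.5 CPM against 41 and 58.7 CPM. For all 6 the K14-Cre-Twist1 libraries lay between replicates 3 and 4 below and replicate 5 above.

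Of the interferon gamma targets, Gbp2 had 44.9, 31.7 and 159 CPM in wild type and 82.3 and 63.4 CPM in K14-Cre-Twist1, Iigp1 16.9, 13.1 and 183 CPM and 80.8 and 69.6 CPM, and Irf1 68.3, 81.2 and 118 CPM and 76.6 and 103 CPM. Stat2 had 29.5, 53 and 104 CPM against 67.4 and 54.5 CPM, and Ifitm3 246, 324 and 365 CPM against 356 and 315 CPM. Irf1, Stat2 and Ifitm3 had a smaller ratio of highest to lowest wild-type library than Gbp2 and Iigp1. Outside the 43, the chemokine genes Cxcl9 and Cxcl10, which draw T cells, had 5.03, 2.22 and 123 CPM and 1.05, 3.02 and 132 CPM in wild type and 9.74 and 16.9 CPM and 8.61 and 0 CPM in K14-Cre-Twist1.

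Keratinocyte markers also separated these libraries. Their sum was 13.7 to 65.0 CPM in wild type, where between 2 and 5 of the 10 were at 0 and Dsg3 was at 0 in all 3 libraries, and 1032 to 36591 CPM in K14-Cre-Twist1. All 9 tested were higher in K14-Cre-Twist1 at an unadjusted p-value under 0.05, and 1 had an FDR under 0.05. Their part in the comparison was not tested. With DESeq2, too, 0 of the 43 had an FDR under 0.05. Without wild-type replicate 5 the log2 fold change was above 0 for 38 of 42 genes, without replicate 3 or 4 for 13 and 12 of 43, and with all 5 wild-type libraries for 11 of 43, while without K14-Cre-Twist1 replicate 1 there were 3 genes lower with an FDR under 0.05, with the spread taken from the wild type alone.

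**Figure D3:**
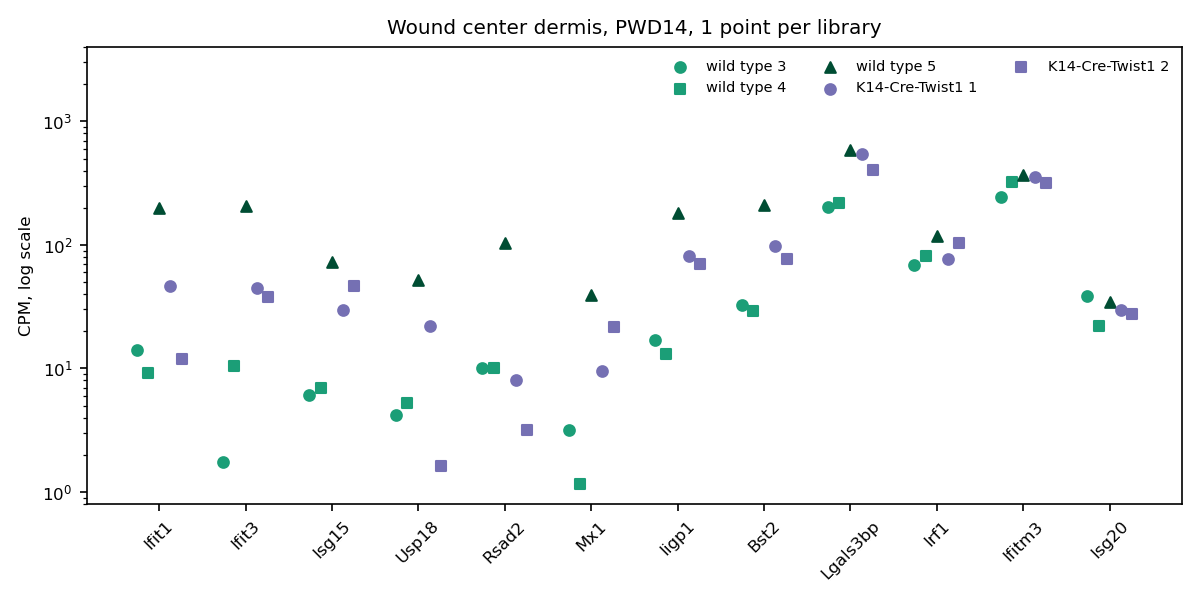
CPM on a log axis of 12 of the 43 genes in the 3 wild-type (green) and 2 K14-Cre-Twist1 (purple) center dermis libraries, 1 point per library. Wild-type replicate 5 (triangle) is the highest point of its gene except for Isg20.

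In spiny mouse dermis 33 of the 43 had their lowest day mean on PWD14, as had 44.8% of 16931 genes over 3 counts in any dermis library, and 32 their highest on PWD21, as had 24% of those genes. In epidermis 27 were lowest on PWD14, where 55.7% of 16512 genes were, 19 were highest on PWD21, against 18.9%, and 16 on PWD28, against 33.5%. These are orders of CPM means of 1 or 2 libraries, without TMM factors and with no test. The median of the 43 day means went in dermis from 4.50 CPM on PWD0 to 1.77 on PWD14, 11.5 on PWD21 and 6.63 on PWD28, and in epidermis from 1.61 to 0.381, 3.38 and 3.28 CPM.

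**Figure D4:**
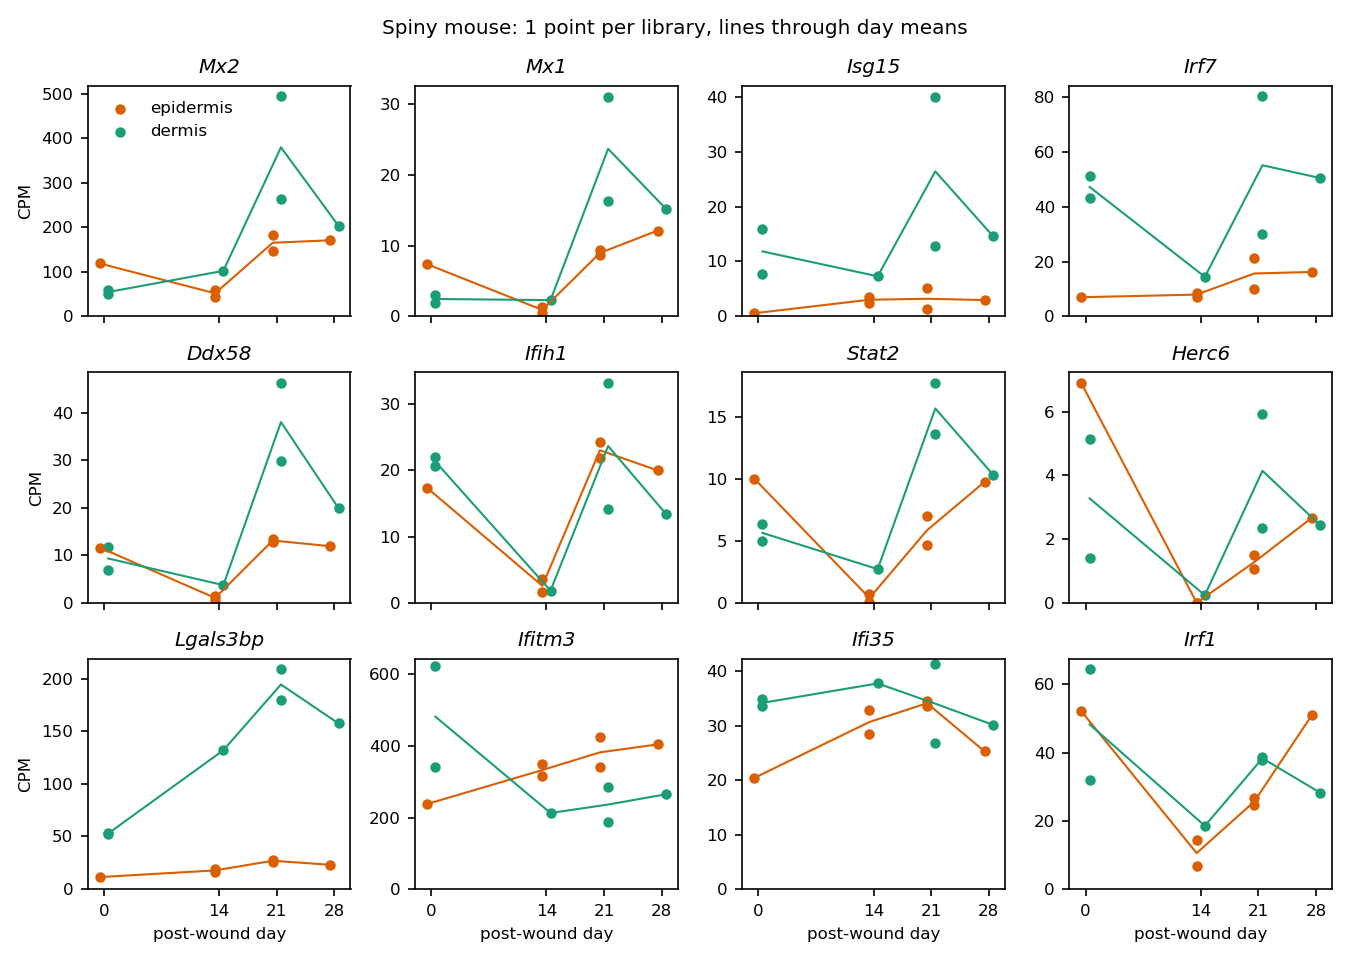
CPM of 12 of the 43 genes in spiny mouse epidermis (orange) and dermis (green) at PWD0, 14, 21 and 28, 1 point per library, with lines through the means of each day. Herc6 and Stat2 fall on PWD14 in both layers, while Ifi35 keeps a level of 20.4 to 41.2 CPM throughout.

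In spiny mouse epidermis PWD14 was compared with PWD21, the days with 2 libraries each. Of 35 genes that passed the filter on low counts, 22 were lower on PWD14 with an FDR under 0.05 (edgeR's quasi-likelihood test over 12889 genes) and 0 were higher, where 23.2% of all genes were lower. Both PWD14 libraries lay below both PWD21 libraries for 31 of the 35, against 61.2% of all genes. Over the 35 genes the median log2 fold change was -2.25 and over all genes -0.04, and without TMM factors all genes had a median log2 ratio of -0.58. Ifit2, Ifit3, Oas2, Oas3, Oasl2, Rsad2, Ifi27l2a and Trim30a were too low to test.

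Of the genes with the largest differences, Xaf1, a binding partner of the apoptosis inhibitor XIAP, and Herc6, the ligase that joins ISG15 to proteins in mice, had 0 counts in both PWD14 libraries. They had 1.51 and 1.26 CPM and 1.06 and 1.48 CPM on PWD21 and were at least 13.5-fold and 11.5-fold lower on PWD14, computed against 3 counts over the group and without TMM factors. Ifi44, a cytoplasmic protein induced by type I interferon, had 0 and 0.191 CPM on PWD14 and 4.91 and 4.28 CPM on PWD21, a ratio of counts of 44.7 (95% counting interval 15.1 to 218). Parp14, an ADP-ribosyltransferase, had 0.0775 and 0 CPM against 1.06 and 2.34 CPM (42.9, interval 7.47 to 1714), and Gbp5 0 and 0.0638 CPM against 1.45 and 1.43 CPM (41.2, interval 7.17 to 1648). The PWD14 values of all 5 rest on 3 counts or fewer.

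Usp18 had 0.388 and 0.319 CPM on PWD14 and 5.68 and 5.99 CPM on PWD21 (log2 fold change -3.49, SE 0.55, FDR = 0.000523). Gbp2 had 0.0775 and 0.319 CPM against 3.9 and 2.85 CPM (log2 fold change -3.48, SE 0.71, FDR = 0.00228), and Stat2 0.698 and 0.0638 CPM against 4.67 and 7.02 CPM (log2 fold change -3.45, SE 0.67, FDR = 0.00183). Mx1 had 1.32 and 0.51 CPM against 8.6 and 9.31 CPM (log2 fold change -2.79, SE 0.46, FDR = 0.00069). The days did not overlap for any of these genes.

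Ifit1 had 0.233 and 0 CPM on PWD14 and 1.15 and 1.54 CPM on PWD21, a ratio of counts of 12.2 (95% counting interval 4.01 to 60.9), and Iigp1 0.155 and 0 CPM and 0.887 and 1.26 CPM, a ratio of 14.5 (interval 3.81 to 123). Both had an FDR under 0.05, and Iigp1 lost it in 3 of 6 alternatives, with FDRs up to 0.106, and in fits without 1 library, with FDRs up to 0.178. Irf1 had 6.74 and 14.4 CPM against 24.7 and 26.6 CPM, Irf7 8.68 and 7.21 CPM against 21.5 and 9.82 CPM and Bst2 2.02 and 1.53 CPM against 4.58 and 4.22 CPM, with PWD14 the lower in each and no FDR under 0.05. Isg15, at 2.48 and 3.57 CPM and 5.14 and 1.26 CPM, Zbp1, at 0.0775 and 1.02 CPM and 0.769 and 0.571 CPM, and Ifitm3, at 315 and 351 CPM and 424 and 340.3 CPM, overlapped between the days.

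By role, all 7 GTPases, Iigp1 among them, had an FDR under 0.05, as had 4 of 5 nucleic acid sensors, with Zbp1 as the exception, and 2 of 4 transcription factors. The sensors Ifih1 and Ddx58, which detect double-stranded RNA in the cytoplasm, had 1.55 and 3.57 CPM and 0.543 and 1.47 CPM on PWD14 and 21.8 and 24.3 CPM and 12.7 and 13.5 CPM on PWD21. Of the receptor and JAK-STAT genes outside the 43, 5 of 10 were lower on PWD14 with an FDR under 0.05 and 1 was higher. Of 12 MHC class I genes 4 were lower and 3 higher, and of 6 MHC class II genes 4 were higher. Low alignment quality set aside 59.5% and 59.7% of the reads on PWD14 and 52.6% and 50.0% on PWD21. Neutrophil markers summed to 1512 to 2503 CPM on PWD14, with 2 to 5 of the 7 at 0. On PWD21 they summed to 181 to 408 CPM, with 0 to 1 at 0. Only 1 of the 7 could be tested, and it was higher on PWD14 with an FDR under 0.05. In the dermis library of PWD14 the 7 summed to 101 CPM. Sums lower on PWD14 were those of follicle markers, with 34.2 to 57.2 CPM against 493 to 1037 CPM and 5 of 6 with an FDR under 0.05, fibroblast markers, with 550.3 to 638 CPM against 1700 to 1823 CPM and 2 of 10 lower and 1 higher, macrophage and monocyte markers, with 32.2 to 38.4 CPM against 80.9 to 97.2 CPM and 3 of 9 tested lower and 3 higher, and Langerhans and dendritic cell markers, with 169 to 221 CPM against 387 to 395 CPM and 2 of 5 tested. Adipocyte markers summed to 5160 to 6303 CPM on PWD14, with 2 of the 5 at 0, against 1053 to 1350 CPM. The PWD14 dermis library had 119 CPM for the same list. The plasmacytoid list summed to 348 to 495 CPM, with 2 of the 6 at 0, against 100.1 to 155 CPM. Sums of this kind can rest on a single gene of a list, so they do not give the number of cells. The part of reads and cells in the result was not tested. With at least 10 counts asked of every library 14 of the 43 could be tested, of which 7 were lower.

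In spiny mouse dermis PWD21 was compared with unwounded skin. Of 39 genes tested, 10 were higher on PWD21 with an FDR under 0.05 (edgeR's quasi-likelihood test over 14481 genes) and 0 were lower, where 12% of all genes were higher. Both PWD21 libraries lay above both PWD0 libraries for 24 of the 39, against 38.2% of all genes. Over the 39 genes the log2 fold change had a median of 1.13, and over all genes of 0.03.

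Oasl2 had 11.7 and 6.07 CPM on PWD21 and 1.06 and 0.735 CPM on PWD0 (log2 fold change 3.19, SE 0.59, FDR = 0.00681). Mx1 had 31 and 16.3 CPM against 3 and 1.91 CPM (log2 fold change 3.14, SE 0.50, FDR = 0.00343), and Mx2 495 and 265 CPM against 59.8 and 49.5 CPM (log2 fold change 2.66, SE 0.38, FDR = 0.00218). Ifit3b, the copy of Ifit3, had 6.7 and 3.22 CPM against 0.353 and 1.32 CPM (log2 fold change 2.44, SE 0.70, FDR = 0.0344). In each of these PWD21 replicate 1 was the higher of its pair and both lay above PWD0.

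Ddx58, or RIG-I, had 46.2 and 29.9 CPM on PWD21 and 6.88 and 11.8 CPM on PWD0 (log2 fold change 1.94, SE 0.36, FDR = 0.00697), and Lgals3bp 209 and 179.8 CPM and 53.6 and 52 CPM (log2 fold change 1.76, SE 0.28, FDR = 0.00339). Gbp2 had 30.7 and 10.2 CPM against 4.94 and 7.2 CPM (log2 fold change 1.64, SE 0.52, FDR = 0.0489). Ifit1 had 14.3 and 7.31 CPM against 2.65 and 4.11 CPM (log2 fold change 1.57, SE 0.48, FDR = 0.0432). Stat2 had 17.7 and 13.6 CPM against 4.94 and 6.32 CPM (log2 fold change 1.37, SE 0.38, FDR = 0.0297), and the tenth was Xaf1. Replicate 1 was again above replicate 2 on PWD21.

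Among the other genes, Isg15 had 40.0 and 12.8 CPM on PWD21 and 15.9 and 7.79 CPM on PWD0, Irf7 80.4 and 29.9 CPM and 51.1 and 43.4 CPM, and Irf1 38.8 and 37.9 CPM and 31.9 and 64.7 CPM, and these overlapped. Usp18 had 19.6 and 8.43 CPM against 6.53 and 5.14 CPM, Bst2 42 and 24.1 CPM against 17.8 and 12.9 CPM, and Zbp1 9.12 and 4.29 CPM against 3.17 and 1.91 CPM, without overlap and without an FDR under 0.05. Ifitm3 had both PWD21 libraries, at 285 and 188 CPM, below both of PWD0, at 622 and 342 CPM. Ifit3 and Ifi27l2a were too low to test, as were Oas2 and Oas3, which were at 0 counts on PWD0 and at 1.28 and 0.46 CPM and 1.505 and 0.489 CPM on PWD21.

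Rsad2 had 6.02 and 1.81 CPM on PWD21 and 0.176 and 1.91 CPM on PWD0, and Iigp1 5.84 and 2.04 CPM and 1.06 and 2.06 CPM. Rsad2 and Iigp1 overlapped. MHC class I genes went the other way from the 43, with 7 of 12 lower on PWD21 with an FDR under 0.05 and a median log2 fold change of -1.10. Endothelial markers were higher on PWD21, with sums of 442 to 610 CPM against 92.6 to 204 CPM and 4 of 6 with an FDR under 0.05, and keratinocyte markers were lower, with 763 to 1369 CPM against 7438 to 9472 CPM and 9 of 10. Their part in the result was not tested. Without PWD21 replicate 1 the count with an FDR under 0.05 was 3 and without PWD21 replicate 2 it was 6, without either PWD0 library it was 17, and with all spiny mouse libraries in 1 fit it was 16.

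All 12 spiny mouse libraries were also fitted together, with layer and day as terms, over 15288 genes of which 41 were of the 43. Between the layers 22 of the 41 were lower in epidermis with an FDR under 0.05 (edgeR's quasi-likelihood test) and 0 were higher, where 28% of all genes were lower. Only for 5, Gbp3, Isg15, Lgals3bp, Bst2 and Zbp1, did all 6 epidermis libraries lie below all 6 dermis libraries, against 14% of all genes. The median log2 fold change was -1.20 over the 41 genes and 0.01 over all genes, and without TMM factors all genes had a median log2 ratio of -0.16.

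The largest differences were those of Gbp5 (log2 fold change -3.85, SE 0.41, FDR = 3.98e-06), Ifit2 (log2 fold change -3.52, SE 0.56, FDR = 0.000426), Zbp1 (log2 fold change -3.16, SE 0.63, FDR = 0.00123), Oasl2 (log2 fold change -3.04, SE 0.53, FDR = 0.000242), Bst2 (log2 fold change -2.66, SE 0.23, FDR = 4.12e-06) and Rsad2 (log2 fold change -2.64, SE 0.73, FDR = 0.00897). Gbp5 ranged between 0 and 2.98 CPM, with a median of 0.997 CPM in epidermis and between 1.3 and 34.6 CPM, with a median of 17.2 CPM in dermis, and Bst2 between 1.53 and 6.26 CPM, with a median of 3.58 CPM and between 12.9 and 42 CPM, with a median of 21 CPM. Isg15 ranged between 0.567 and 5.14 CPM, with a median of 2.73 CPM in epidermis and between 7.3 and 40.0 CPM, with a median of 13.7 CPM in dermis (log2 fold change -2.55, SE 0.57, FDR = 0.00292). Gbp5 overlapped through its dermis library of PWD14, and Bst2 and Isg15 did not. Also lower among the core genes were Ifi27l2a (-2.45), Gbp2 (-2.32), Irf7 (-1.64), Iigp1 (-1.59), Ifit1 (-1.42) and Usp18 (-1.36), log2 fold changes with FDRs between 0.000527 and 0.0445. MHC class I genes differed in the other direction, with 8 of 12 higher in epidermis with an FDR under 0.05. Markers with that FDR were 9 of 10 for fibroblasts, 6 of 6 for endothelium and 7 of 9 for macrophages and monocytes, lower in epidermis, and 9 of 10 for keratinocytes, higher, and their part was not tested. With at least 10 counts in every library 5 were lower with an FDR under 0.05.

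Between PWD14 and unwounded skin, over both layers, 13 of the 41 genes were lower on PWD14 with an FDR under 0.05 and 2 were higher, where 14.3% of all genes were lower and 10.1% higher. Within each layer, all PWD14 libraries lay below all PWD0 libraries for 20, against 34.2% of all genes, counted by layer since PWD14 holds 2 libraries of epidermis and 1 of dermis and PWD0 the reverse. The median log2 fold change was -0.99 over the 41 genes and -0.13 over all genes, and without TMM factors all genes had a median log2 ratio of -0.53.

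Ifit2, which binds viral RNA, had 0.118 CPM in dermis on PWD14 and 1.94 and 7.05 CPM on PWD0, and 0 and 0 CPM and 0.85 CPM in epidermis, a ratio of counts of 40.2 in dermis (95% counting interval 10.6 to 339). Herc6 had 0.235 CPM against 1.41 and 5.14 CPM in dermis and 0 and 0 CPM against 6.89 CPM in epidermis (log2 fold change -5.17, SE 1.03, FDR = 0.00426). Parp14 had 0.235 CPM against 1.94 and 8.52 CPM in dermis and 0.0775 and 0 CPM against 1.61 CPM in epidermis (log2 fold change -4.32, SE 0.92, FDR = 0.00681). All 3 genes were lower on PWD14 in each layer.

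Ifi44 had 0 CPM against 1.41 and 1.32 CPM in dermis and 0 and 0.191 CPM against 1.61 CPM in epidermis, a ratio of counts of 15.3 in epidermis (interval 4.42 to 81.4). Ifit1 had 0.235 CPM against 2.65 and 4.11 CPM in dermis and 0.233 and 0 CPM against 3.12 CPM in epidermis (log2 fold change -3.75, SE 0.98, FDR = 0.0152). Gbp5 had 1.3 CPM against 9.35 and 20.6 CPM in dermis and 0 and 0.0638 CPM against 0.567 CPM in epidermis (log2 fold change -3.25, SE 0.65, FDR = 0.00454). Again no PWD14 library reached the PWD0 library of its layer.

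Stat2 had 2.71 CPM on PWD14 and 4.94 and 6.32 CPM on PWD0 in dermis, and 0.698 and 0.0638 CPM and 10.01 CPM in epidermis (log2 fold change -2.27, SE 0.68, FDR = 0.034). Irf1 had 18.5 CPM against 31.9 and 64.7 CPM in dermis and 6.74 and 14.4 CPM against 52.1 CPM in epidermis (log2 fold change -1.39, SE 0.36, FDR = 0.0187). The other genes that were lower were the sensors Ifih1, Ddx58 and Dhx58, the nucleotide kinase Cmpk2 and Xaf1. Those that were higher were Rtp4, a receptor chaperone, with 2 CPM against 0.176 and 0.735 CPM in dermis and 0.465 and 1.28 CPM against 0.283 CPM in epidermis (log2 fold change 2.26, SE 0.61, FDR = 0.0211), and Lgals3bp, with 132 CPM against 53.6 and 52 CPM and 16 and 19.5 CPM against 11.4 CPM (log2 fold change 1.497, SE 0.21, FDR = 0.00139). With at least 10 counts in every library the count in both directions went from 15 to 4, with a median of 0.09 over the 13 genes left. The lower median on PWD14 was therefore not seen in genes that kept 10 counts in every library. The cause of this change was not tested. Without dermis PWD14 replicate 1, the only library of its day and layer, the count in both directions was 10. Markers with an FDR under 0.05 were lower on PWD14 for 4 of 5 of adipocytes, 4 of 10 of keratinocytes, 3 of 6 of muscle and 2 of 6 of follicles, and higher for 2 of 3 tested of neutrophils. Of 9 macrophage and monocyte markers tested 3 were higher and 1 lower, and of 10 fibroblast markers 2 were higher and 1 lower. The adipocyte sum rose in epidermis, from 38.0 CPM on PWD0 to 5160 to 6303 CPM on PWD14. In dermis it fell from 936 to 968 CPM to 119 CPM. The part of these cells was not tested.

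Between PWD21 and unwounded skin, over both layers, 6 of the 41 genes were higher on PWD21 with an FDR under 0.05 and 0 were lower, where 2.59% of all genes were higher. At an unadjusted p-value under 0.05, 16 were higher, against 10.9% of all genes, and 0 lower. Within each layer, all PWD21 libraries lay above all PWD0 libraries for 18, against 10.8% of all genes. Over the 41 genes the log2 fold change had a median of 1.07, and over all genes of 0.01. PWD14 and PWD21 were set against the same PWD0 libraries.

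Oasl2 (log2 fold change 2.95, SE 0.66, FDR = 0.0173), Ifit3b (log2 fold change 2.60, SE 0.72, FDR = 0.0447) and Mx2 (log2 fold change 1.82, SE 0.42, FDR = 0.0249) were higher, in a fit that holds the libraries of the dermis comparison. In epidermis Oasl2 had 0.384 and 0.628 CPM on PWD21 and 0.0944 CPM on PWD0, Ifit3b 1.39 and 1.37 CPM and 0.189 CPM, and Mx2 183 and 148 CPM and 119 CPM. All PWD21 epidermis libraries were above the single PWD0 library for these genes.

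Lgals3bp (log2 fold change 1.67, SE 0.20, FDR = 0.00224) had 27.6 and 26.2 CPM on PWD21 and 11.4 CPM on PWD0 in epidermis. Rtp4 (log2 fold change 2.38, SE 0.57, FDR = 0.0268) had 3.06 and 1.84 CPM against 0.176 and 0.735 CPM in dermis and 1.63 and 1.26 CPM against 0.283 CPM in epidermis. Irf9 (log2 fold change 0.94, SE 0.21, FDR = 0.0227) had 58.8 and 46.6 CPM against 27 and 27.3 CPM in dermis and 52.8 and 51.3 CPM against 31 CPM in epidermis. MHC class I genes were lower on PWD21 for 6 of 12 with an FDR under 0.05, as were 4 of 5 adipocyte and 3 of 6 muscle markers. The adipocyte sum still rose in epidermis, from 38.0 CPM on PWD0 to 1053 to 1350 CPM on PWD21. In dermis it fell from 936 to 968 CPM to 122 to 249 CPM. The part of these cells was not tested. The count with an FDR under 0.05 was 14 with DESeq2 and 14 with a term for each layer and day. It was 12 without epidermis PWD0 replicate 1, 2 or 3 without either PWD21 epidermis library, 2 without either PWD0 dermis library and 1 without dermis PWD21 replicate 1.

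On PWD28, with 1 library a layer and no test, Isg15 had 14.6 CPM in dermis and 2.98 CPM in epidermis, Mx2 203 CPM and 171 CPM, and Lgals3bp 157 CPM and 23.1 CPM. Mx2 on PWD28 stayed above the PWD0 libraries of its layer. The interferon genes had at most 9 counts in any spiny mouse library, for Ifne.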

How the data were processed

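RNA-seq was measured in 25 libraries. Per the labels, the authors used STAR 2.4.1d for alignment to mouse build mm10 (the study's methods name another release) and counted reads per RefSeq gene with HTSeq 0.6.0, so the deposited values are raw counts of 24500 genes per library, followed by 5 summary lines that were left out here. Lab mouse epidermis was sequenced with paired ends and strand, lab mouse dermis with single ends and strand, and spiny mouse skin with single ends and without strand, so that reads of overlapping antisense genes cannot be told apart there. Spiny mouse reads that differ from the mouse genome are lost, and a gene's level then depends on its likeness between species.

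CPM were computed from the deposited counts over all gene reads, without TMM factors. Tests used edgeR 4.0.16 (R 4.3.3, limma 3.58.1): filterByExpr, TMM, the quasi-likelihood test on the libraries compared, and Benjamini-Hochberg adjustment over all genes tested, with an FDR threshold of 0.05. Standard errors were taken as the size of a log2 fold change divided by the root of its F. Figures and tables used Python 3.11.15, pandas 2.3.3 and matplotlib 3.10.9. Groups come from the labels. No 2 libraries held identical counts. Replicates were least alike in margin epidermis and in K14-Cre-Twist1, with a chi-square per gene of 394 and 355 between the 2 libraries. In the other pairs of replicates compared it was between 30.1 and 108. This measure grows with read depth. Members and lists were chosen with earlier results of these data known. Values are given for 16 core genes (Isg15, Ifit1, Ifit3, Irf7, Irf1, Stat2, Mx1, Oas2, Rsad2, Usp18, Bst2, Ifitm3, Gbp2, Iigp1, Ifi27l2a and Zbp1) and for up to 6 genes a direction, those that changed most of the genes under the FDR threshold (under an unadjusted p of 0.05 where none was), with fit statistics where that threshold was passed. Genes outside this rule were named after their values were seen. Fold bounds use a floor of 3 counts over the group, and setting genes at 0 in a group to their bound left each median over the members as printed.

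Each fit was also run on simulated counts with known changes. These were drawn from the model of the fit itself, so they cannot show how well that model holds for these libraries. Alternatives were DESeq2 1.42.0, RLE factors, no filter, at least 10 counts in every library, the quasi-likelihood estimate of edgeR 3, wider fits and leaving out each library, and library size without TMM, chosen after seeing the data. One item is withheld and not reported here.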

Additional observations from a re-analysis of the deposited data

Results flagged for a closer look

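Among the 5 wild-type center dermis libraries of the lab mouse, the only group of 4 or more, a library that stood apart was looked for in each of the 43 genes by Dixon's test (critical value 0.71 for the gap over the range), which flags about 1 in 20 groups by chance. It found 3 genes. Ifit3 had 205 CPM in replicate 5 and Gbp5 had 86.6 CPM in replicate 5, each the highest of its group, and Oas1g had 18.8 CPM in replicate 1. Over 43 genes, 3 flags are close to what that chance rate alone would give. The share of all genes flagged was not computed. The 5 libraries also join sets that the study compared separately and that may differ in strain, and the test takes them as a single group. The flags therefore do not show that a library stood apart in these genes. The center-margin difference of Isg15 was larger in epidermis than in dermis by 3.37 on the log2 scale (FDR = 0.0276, edgeR's quasi-likelihood test of the interaction), and 7 of the 8 fits without 1 library did not pass the threshold.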

How the results depend on the processing

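No paired analysis was possible because the labels give no replicate numbers. Center and margin, and epidermis and dermis, may have come from the same wounds. The fits treated all libraries as independent. The counts that follow are members with an FDR under 0.05 in either direction, and the cause of their changes was not tested. For lab epidermis, center against margin, the 3 became 21 with DESeq2, 1 with at least 10 counts in every library, 0 with the estimate of edgeR 3, and 0 to 39 without 1 library, where the spread of 2 against 1 library comes from the pair alone. For lab dermis the 7 became 21 with DESeq2, 3 with the estimate of edgeR 3, 0 with all lab mouse libraries or all 5 wild-type center libraries in the fit, and 0 to 7 without 1 library. For K14-Cre-Twist1 the 0 became 0 to 3 without 1 library. For the interaction the 1 became 4 with DESeq2, 2 with the estimate of edgeR 3, and 0 to 3 without 1 library. The 39 of the lab layers became 37 to 40 without 1 library. With at least 10 counts in every library, spiny epidermis went from 22 to 7 and the spiny layers from 22 to 5. PWD14 against PWD0 went from 15 to 4 and PWD21 against PWD0 from 6 to 3, with fewer genes tested in each. PWD21 against PWD0 became 14 with DESeq2 and 14 with a term for each layer and day, and spiny dermis went from 10 to 16 with all spiny libraries in 1 fit. Without 1 library these counts were 16 to 23 for spiny epidermis, 3 to 17 for spiny dermis, 15 to 27 for the spiny layers, 10 to 16 for PWD14 and 1 to 12 for PWD21.

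No named gene with a call changed direction under these alternatives. Where no library was left out, 453 of their values stayed past the FDR threshold and 30 did not, and where one was, 521 did and 89 did not. Of 100 core results without a call, 35 changed sign and 41 were called in some alternative. In the shallowest spiny mouse library a level under 0.529 CPM was not detectable.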
